A study of Mus musculus with 9 samples.

Results

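The genes described here are 52 interferon-stimulated genes and components of the interferon response, read from RNA-seq libraries of mouse pancreatic ductal adenocarcinoma (PDAC) cells. They were chosen by name, as a list of receptors, transcription factors, nucleic acid sensors, antiviral effectors, interferon-inducible GTPases, feedback inhibitors and other induced genes. Each of the 52 symbols matched 1 Ensembl gene among the 47643 genes in the files, and all 52 were among the 14105 genes that were tested because their counts summed to 100 or more. The libraries were made from tumor cells that were sorted by fluorescence. Tags from the 3′ end of transcripts were counted per gene, so a value is a number of reads and does not scale with transcript length.

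Both groups came from mice in which the Flp recombinase, driven by Pdx1 in the pancreas, recombined Trp53 frt/+, with the R26 FSF-CreER/Dual alleles that mark Flp-expressing cells with GFP. Both were kept on a tamoxifen (TAM) diet once tumors could be felt, which activates CreER, removes GFP and turns on tdTomato (Tm). The 6 KPF libraries hold GFP+Yap+ cells of mice without floxed Yap, and the 3 KPYYF libraries hold Tm+Yap− cells of mice that also carry Yap flox/flox, taken from nodules that had grown back after Yap loss. Genotype, Yap status, reporter color and CreER activity therefore changed together and cannot be told apart. The labels give neither the age nor the sex of the mice. Sex may be unevenly divided between the groups, judging by the Xist levels given below. Libraries bear mouse numbers, and the number 4504 is borne by both 4504h and 4504s of the KPF group, so p values measure the spread between libraries, which for that pair may be technical.

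Reads on genes ran from 8264587 to 9635514 in the KPF libraries and were 8116539, 8685875 and 8725132 in KPYYF libraries 4449, 4891 and 4938. Levels are given as CPM, counts scaled to the size of the library by TMM, and where no read was counted, up to 3 reads remain possible, which is 0.291 to 0.436 CPM depending on the library. This limit covers counting error only, because the reads carry no molecular identifiers. Yap1 had 41.7 to 151 CPM in KPF libraries and 0.711, 2.83 and 7.11 CPM in 4449, 4891 and 4938, which gave −4.79 on the log2 scale (standard error 0.72, adjusted p = 0.0159 by edgeR), but whether the counted 3′ end lies in the deleted part is not given in the sources used here. The summed level of 8 ductal carcinoma markers was 3498 to 9134 CPM in KPF and 620 to 1875 CPM in KPYYF libraries. Krt7, Krt18, Krt19, Cdh1 and Muc1 were lower in every KPYYF than in every KPF library (5.16% of all genes). Krt8, Epcam and Sox9 overlapped between the groups. In 4449, Epcam had 134 and Sox9 318 CPM, against KPF medians of 173 and 275 CPM. Xist, a marker of female cells, was low in 4269, 4515 and 4601 of the KPF group, at 7.67, 7.84 and 23.1 CPM. The other KPF libraries, 4435, 4504h and 4504s, were high, at 1117, 758 and 667 CPM. So were 4449, 4891 and 4938, at 1642, 376 and 1761 CPM. Every KPYYF library but only part of the KPF group was thus high in Xist. Markers of other cell types differed between libraries. KPF library 4601 had 15016 CPM summed over 40 immune markers, 13.6 times the median of the other libraries, and 34 of the 40 markers were highest in it. KPF library 4504s and KPYYF library 4449 had the highest sums of 5 acinar markers, 19001 and 5195 CPM, against 64.0 to 950 CPM in the others.

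Interferons are secreted proteins, and those of type I are released by cells that sense foreign or misplaced nucleic acid. Type I interferons bind Ifnar1 and Ifnar2 and signal through a complex that holds Stat2 and Irf9 and binds the interferon-stimulated response element (ISRE), while interferon gamma binds Ifngr1 and Ifngr2 and acts on the gamma-activated site (GAS). The induced genes block viral entry and replication, and several of the sensors and transcription factors are themselves induced, so that the response amplifies itself. In tumors, the same genes are expressed by carcinoma cells and by infiltrating immune cells.

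The promoters were searched for both elements. RefSeq promoters on GRCm38.p6, from 250 bases before to 50 bases after the start, were given for 40 of the 52 members. The ISRE core was searched as GAAANNGAAA and GAS as TTCNNNGAA, on both strands, and the patterns can overlap, because the GAA of a core can also close a GAS. At least 1 ISRE core was found in 20 of the 40 members (50%), against 3.99% of the 27025 genes in the table and 3.44% of its 32851 promoters. GAS was found in 13 of the 40 (32.5%), against 9.55% of all genes and 8.30% of all promoters, while 7 members held both and 14 held neither. The core was present in all 5 of the GTPases with an entry and in 10 of 17 antiviral effectors, in 2 of 3 sensors, in 2 of 6 transcription factors and in Socs1, the feedback inhibitor with an entry, but in none of 4 receptors and none of 4 other induced genes. Dhx58, Zbp1, Tmem173, Mx1, Mx2, Oas2, Ifi27, Parp9, Parp14, Rtp4, Iigp1 and Usp18 had no entry. Stretches of 30 bases around the core are shown for the members with a match whose level is given below in every KPYYF library, and for the GTPases with a match. Capitals mark the bases inside a match, TTTC repeats are the core read on the other strand, and each is written 5′ to 3′ on the strand of its gene.

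Isg15 (chr4:156200871-156200900, − strand): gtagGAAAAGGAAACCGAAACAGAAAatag
Ddx58 (chr4:40239804-40239833, − strand): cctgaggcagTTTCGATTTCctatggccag
Ifit1 (chr19:34640775-34640804, + strand): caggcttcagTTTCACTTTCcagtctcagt
Rsad2 (chr12:26456553-26456582, − strand): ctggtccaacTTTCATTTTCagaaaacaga
Ifitm3 (chr7:141010723-141010752, − strand): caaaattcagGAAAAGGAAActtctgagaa
Gbp2 (chr3:142620594-142620623, + strand): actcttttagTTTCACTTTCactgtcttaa
Gbp3 (chr3:142559992-142560021, + strand): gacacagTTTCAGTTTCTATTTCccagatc
Gbp7 (chr3:142530273-142530302, + strand): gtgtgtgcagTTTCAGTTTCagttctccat
Igtp (chr11:58199512-58199541, + strand): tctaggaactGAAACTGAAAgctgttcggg
Irgm1 (chr11:48871428-48871457, − strand): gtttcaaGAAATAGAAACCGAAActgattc
Socs1 (chr16:10785597-10785626, − strand): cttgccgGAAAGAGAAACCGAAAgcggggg

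The upstream sequences of Isg15 and Ifngr1 are shown in full, as those of a member that was higher and of the only member that was lower in KPYYF cells by the rule of the study given below, a change over 2-fold with an unadjusted p under 0.05. The 250 bases before the start of Isg15 hold a run of overlapping cores, and those of Ifngr1 hold neither pattern.

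Isg15 upstream (chr4:156200819-156201068, − strand): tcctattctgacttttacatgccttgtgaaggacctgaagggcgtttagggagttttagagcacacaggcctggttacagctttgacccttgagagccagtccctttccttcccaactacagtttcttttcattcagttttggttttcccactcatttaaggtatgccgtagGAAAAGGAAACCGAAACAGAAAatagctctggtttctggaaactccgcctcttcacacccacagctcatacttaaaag
Ifngr1 upstream (chr10:19591699-19591948, + strand): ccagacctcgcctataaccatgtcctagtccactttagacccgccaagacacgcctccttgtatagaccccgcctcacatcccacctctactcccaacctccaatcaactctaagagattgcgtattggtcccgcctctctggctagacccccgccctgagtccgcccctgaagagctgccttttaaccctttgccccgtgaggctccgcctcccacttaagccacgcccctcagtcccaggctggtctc

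The comparison of Tm+Yap− with GFP+Yap+ cells asks how relapsed cells without Yap differ from cells that keep it. Of the 52 members, 43 had a higher and 9 a lower mean level in KPYYF cells, where 46.7% of all genes tested were higher and 53.3% lower. The median log2 fold change of the members was 1.19, against −0.07 over all genes tested. No member passed an adjusted p of 0.05 when edgeR's quasi-likelihood p values were adjusted by the Benjamini-Hochberg method across the whole table, where 0.305% of all genes were called higher and 0.794% lower. The smallest adjusted p among the members was 0.0902, that of Ifit1. By the rule in the methods of the study, a change over 2-fold with an unadjusted p under 0.05, 9 members were higher (4.2% of all genes) and 1 was lower (9.2% of all genes), and these 10 are all the members with an unadjusted p under 0.05 by edgeR. DESeq2's Wald test called Irf7, Ifit1, Rsad2, Ifi44 and Rtp4 higher and Ifngr1 lower at an adjusted p under 0.05 (5 and 1 members, against 1.91% and 6.58% of all genes), and limma-voom with sample quality weights called none. By exact permutation tests of single members, two-sided and not adjusted, 5 had a p under 0.05 and were higher, Isg15, Ifit1, Eif2ak2, Ifitm3 and Ifi44 (5.8% of all genes), and Ifnar1 and Ifngr1 were lower (9.56%). The smallest p this design allows is 0.0119.

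No member separated the groups, while 3.93% of all genes were higher and 5.16% lower in every KPYYF than in every KPF library. The 3 KPYYF libraries differed among themselves more than the KPF libraries did. The standard deviation of log2 CPM between KPYYF libraries had a median of 1.91 over the members, against 1.22 between KPF libraries, while both medians were 0.78 over all genes tested. It was larger in KPYYF than in KPF libraries for 41 of the 52 members and for 51.9% of all genes.

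**Figure D1:**
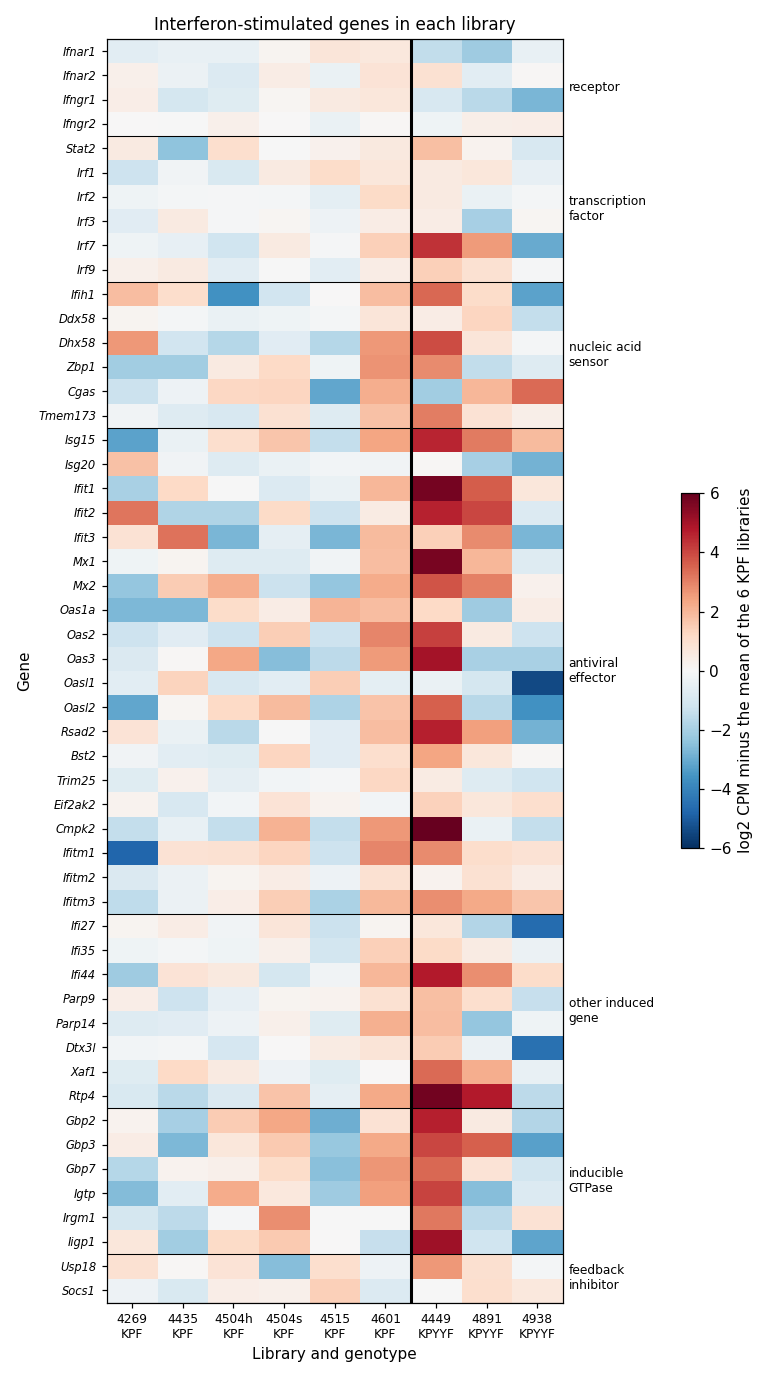
Level of each of the 52 members (rows, by role) in each of the 9 libraries (columns), as log2 CPM minus the mean of the 6 KPF libraries; red is higher and blue is lower. Library 4449 holds the highest value of 33 members, library 4891 is intermediate for many of them, and library 4938 is lowest for 13.

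Library 4449 had the highest CPM of all 9 libraries for 33 of the 52 members, where it was highest for 16.1% of all genes. It lay above every KPF library for the same number, 33 members (20.8% of all genes), and more than 2-fold above every other library for 20 (3.2% of all genes). Library 4891 exceeded every KPF library for 17 members (18.7% of all genes). Library 4938 did so for 3, namely Ifngr2, Cgas and Eif2ak2 (17.4% of all genes), lay below every KPF library for 13 (19.1%) and had the lowest level of all 9 libraries for 13 (10.1%). The order 4449, 4891, 4938 from high to low was found for 34 members and 16.4% of all genes. The median log2 difference between 4449 and 4938 was 3.05 over the members. These per-library counts were chosen after the values were seen.

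Among the 4 receptor genes, the median log2 fold change was −0.57, with 2 higher and 2 lower, and 1 of them was highest in 4449. Ifngr1 (ENSMUSG00000020009, chr10:19591949-19610229 on GRCm38), the ligand-binding chain of the interferon gamma receptor, had 64.1 CPM in the lowest, 158 in the median and 215 in the highest KPF library, and 66.8, 42.3 and 19.6 CPM in 4449, 4891 and 4938. Libraries 4891 and 4938 were below every KPF library, and 4449 overlapped the lowest, 4435. Its log2 fold change was −1.76 (standard error 0.48, unadjusted p = 0.00292, adjusted p = 0.101), from 145 ± 61.2 CPM (SD, n = 6) to 42.9 ± 23.6 CPM (SD, n = 3). The adjusted p was 0.0657 without 4449 and at most 0.256 when any library was left out, and it was 0.0070 by DESeq2. Ifngr2, the partner chain, had the largest positive value of the receptors, a log2 fold change of 0.18 (standard error 0.33), with 26.2 to 43.2 CPM in KPF (median 35.1) and 28.4, 44.5 and 46.2 CPM in 4449, 4891 and 4938, and the groups overlapped. The chains of the type I receptor, Ifnar1 and Ifnar2, had −1.30 and 0.15. In sorted bulk libraries, fewer cells that express a gene and less RNA per cell cannot be told apart.

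Among the 6 transcription factors, the median log2 fold change was 0.29, with 4 higher and 2 lower. Irf7 (ENSMUSG00000025498, chr7:141262706-141266481), which drives the amplifying wave of type I interferon and is itself induced, had 2.55, 5.50 and 16.8 CPM in the lowest, median and highest KPF library and 126, 36.6 and 0.547 CPM in 4449, 4891 and 4938. The KPYYF libraries thus held the 2 highest and the lowest value of all 9. The log2 fold change was 2.90 (standard error 1.00, unadjusted p = 0.0143, adjusted p = 0.178). The value was 1.35 without 4449 and 3.48 without 4938, with adjusted p of 0.56 and 0.0557. Irf3, the factor that sensors activate without new synthesis, had the lowest value of the group, −0.23 (standard error 0.49), with 23.2 to 53.9 CPM in KPF (median 37.9) and 50.2, 9.27 and 40.1 CPM in 4449, 4891 and 4938. Stat2 and Irf9, which act together at the ISRE, had 0.48 and 0.80, and Irf1 and Irf2, an activator and a repressor at the same element, had 0.10 and −0.04. Exons of Irf7 and Irf3 overlap those of Phrf1 and Bcl2l12 on the opposite strand, and the strand setting of the counting is not given in the sources used here. Exons of Irf9 overlap those of Rnf31 on the same strand. The counts of these genes are uncertain to that extent.

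All 6 nucleic acid sensors had a positive value (median log2 fold change 1.39), none with an unadjusted p under 0.05 by edgeR. Tmem173, which encodes Sting, the adaptor that is activated by the product of cGAS, had the largest, 1.56 (standard error 0.72, unadjusted p = 0.0544, adjusted p = 0.322). Its level was 15.6 to 103 CPM in KPF libraries (median 22.0) and 258, 55.3 and 38.3 CPM in 4449, 4891 and 4938, and the highest KPF library, the immune-rich 4601, lay above 4891 and 4938. In Cgas, the sensor of cytosolic DNA, the order of the KPYYF libraries was inverted, with 0.237 CPM in 4449, 7.52 in 4891 and 20.2 in 4938 and 0 to 8.57 CPM in KPF (log2 fold change 1.53). Ifih1, the sensor Mda5 of long double-stranded RNA, had 1.31, Dhx58, a modulator of these helicases, 1.48, and Zbp1, which binds Z-form nucleic acid, 0.54. Ddx58, the RNA sensor RIG-I, had the smallest value, 0.45 (standard error 0.58), with 9.68 to 21.2 CPM in KPF and 17.9, 32.1 and 4.70 CPM in 4449, 4891 and 4938. It was highest in 4891, above every KPF library, and lowest in 4938. Dhx58 and Zbp1 had at most 10.8 CPM in any library and were highest in 4449. In 4891 and 4938, Dhx58 had 0.981 and 0.437 CPM and Zbp1 0.109 and 0.328 CPM, below the KPF means of 1.45 and 1.57 CPM. Their positive values thus rest on 4449. Both fell below the count filter without 4449, and Zbp1 also without KPF library 4601.

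The 20 antiviral effectors held 5 of the 9 higher members, and 16 of the 20 had a positive value (median log2 fold change 1.46). Ifit1 (ENSMUSG00000034459, chr19:34640871-34650009), which binds viral RNA that lacks a host cap, had 0.194, 1.16 and 6.10 CPM in the lowest, median and highest KPF library and 85.6, 19.7 and 2.30 CPM in 4449, 4891 and 4938. The level in 4449 was 14.0 times that of the highest KPF library, 4891 was also above all KPF libraries, and 4938 was within their range. The fitted log2 fold change was 4.08 (standard error 1.04, unadjusted p = 0.00194, adjusted p = 0.0902), and the adjusted p ran from 0.0563 to 0.356 as each library was left out.

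Mx1 (ENSMUSG00000000386, chr16:97447035-97462907), a dynamin-like GTPase that blocks influenza viruses, had the largest value of all members, a log2 fold change of 4.70 (standard error 1.83, unadjusted p = 0.0231, adjusted p = 0.219). It rested on few reads outside 4449, with 0, 0.10 and 1.16 CPM in the lowest, median and highest KPF library and 19.6, 1.31 and 0 CPM in 4449, 4891 and 4938. Without 4449 it had too few counts to be tested. Rsad2 (ENSMUSG00000020641, chr12:26442746-26456452), the enzyme viperin that makes a chain-terminating nucleotide, had 1.84, 5.31 and 22.7 CPM in the lowest, median and highest KPF library and 158, 34.1 and 0.656 CPM in 4449, 4891 and 4938. As for Irf7, the KPYYF libraries held the 2 highest and the lowest value of all. Its log2 fold change was 2.96 (standard error 1.10, unadjusted p = 0.0217, adjusted p = 0.216) and 1.08 without 4449.

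In Isg15 and Ifitm3 the groups overlapped through a single KPF library. Isg15 (ENSMUSG00000035692, chr4:156199424-156200818), a ubiquitin-like protein that is attached to other proteins, had 0.0971, 3.83 and 15.0 CPM in the lowest, median and highest KPF library and 69.8, 25.6 and 10.7 CPM in 4449, 4891 and 4938. The log2 fold change was 2.71 (standard error 1.02, unadjusted p = 0.0217, adjusted p = 0.216). Ifitm3 (ENSMUSG00000025492, chr7:141009586-141010770), a membrane protein that hinders viral fusion, had 24.5, 97.0 and 357 CPM in the lowest, median and highest KPF library and 639, 458 and 296 CPM in 4449, 4891 and 4938. The fitted log2 fold change was 1.68 (standard error 0.75, unadjusted p = 0.0483, adjusted p = 0.304). For both genes that library was 4601, the only one of the KPF group above 4938. Ifitm1, Ifitm2 and Ifitm3 are close paralogs, and Ifitm1 and Ifitm2 had 0.65 and 0.44.

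Oasl1, which restrains translation of Irf7, had the largest negative value of the effectors, −1.66 (standard error 1.02, unadjusted p = 0.129, adjusted p = 0.468), with 7.03 to 39.6 CPM in KPF (median 9.04) and 10.5, 6.65 and 0.109 CPM in 4449, 4891 and 4938. Libraries 4891 and 4938 were below every KPF library, and the log2 fold change was −1.08 without 4938. In the KPF group, 4435 and 4515 had 35.9 and 39.6 CPM and the others at most 9.15 CPM. The oligoadenylate synthetases Oas1a, Oas2 and Oas3 and the related Oasl2 had −0.61, 1.86, 2.39 and 1.24, and reads that do not map to 1 place were not counted, which may affect such families. The RNA-binding Ifit2 and Ifit3 had 2.70 and 0.32, the dynamin-like Mx2 had 1.92, and the mitochondrial nucleotide kinase Cmpk2 had 3.65. The virion tether Bst2 had 1.16 and Eif2ak2, the kinase PKR that halts translation on double-stranded RNA, had 0.96. The exonuclease Isg20 had −1.36 and the ubiquitin ligase Trim25, which acts on RIG-I, had −0.48. None of these had an unadjusted p under 0.05 by edgeR, and Oas2 and Cmpk2 fell below the count filter without 4449. Oas2 also fell below it without 4601.

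**Figure D2:**
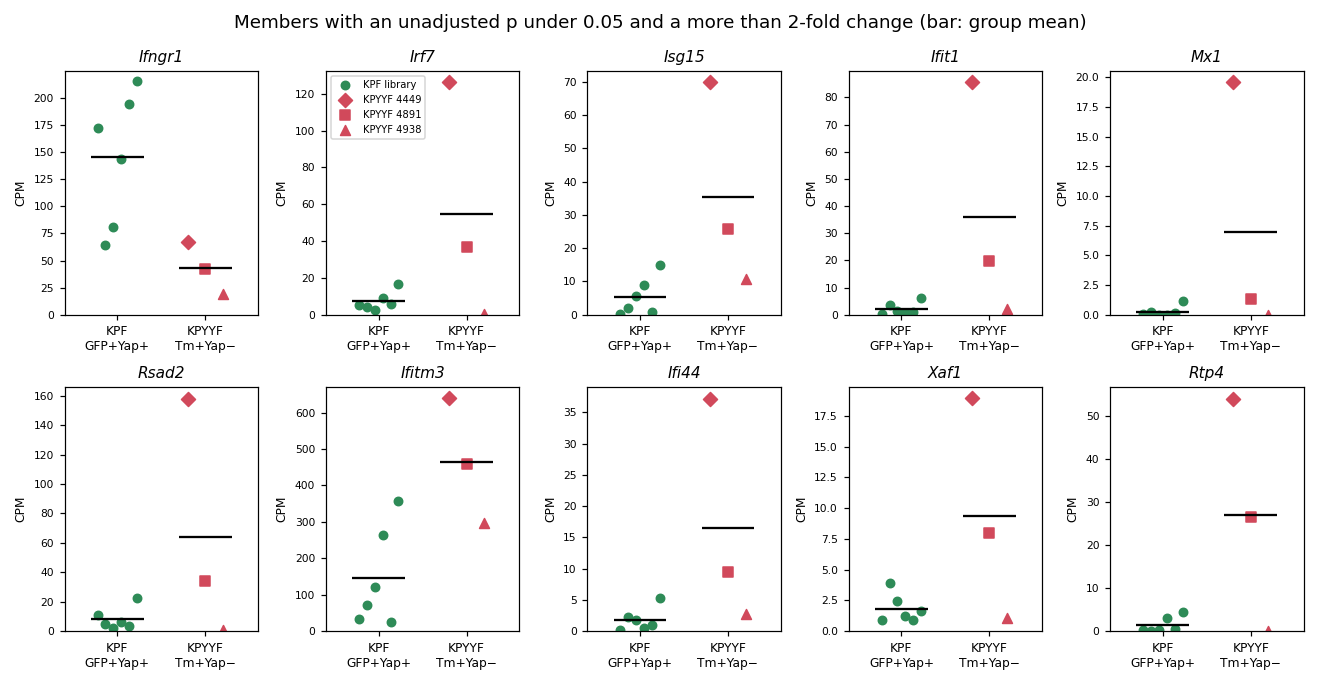
CPM of the 10 members that met the rule of the study, a change over 2-fold with an unadjusted p under 0.05, one panel per gene with its own linear axis from 0. Points are libraries and bars are group means; in 9 genes library 4449 (diamond) lies above all others and 4938 (triangle) lies among the KPF libraries or below them, and in Ifngr1 the order of the groups is inverted.

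Of 8 other induced genes, 7 had a positive value (median log2 fold change 0.60), and 3 were higher by the rule of the study. Rtp4 (ENSMUSG00000033355, chr16:23520291-23614222), a receptor transporter that also tunes the interferon response, had 0.102, 0.37 and 4.50 CPM in the lowest, median and highest KPF library and 54.0, 26.5 and 0.109 CPM in 4449, 4891 and 4938. In 4449 and 4891 it was above every KPF library, and in 4938 a single read was counted. Its log2 fold change was 4.24 (standard error 1.35, unadjusted p = 0.00859, adjusted p = 0.149), and it was 3.22 without 4449. Ifi44 (ENSMUSG00000028037, chr3:151730922-151749960), a cytoplasmic induced protein, had 0.0971, 1.41 and 5.23 CPM in the lowest, median and highest KPF library and 37.2, 9.48 and 2.73 CPM in 4449, 4891 and 4938, a log2 fold change of 3.18 (standard error 1.07, unadjusted p = 0.0108, adjusted p = 0.164). Here too 4601 was the only KPF library above 4938.

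Xaf1 (ENSMUSG00000040483, chr11:72301629-72313733), an antagonist of the apoptosis inhibitor Xiap, had 0.874, 1.42 and 3.88 CPM in the lowest, median and highest KPF library and 19.0, 7.96 and 1.09 CPM in 4449, 4891 and 4938. The level in 4938 was within the KPF range. The log2 fold change was 2.35 (standard error 1.02, unadjusted p = 0.0389, adjusted p = 0.273). Ifi27, a mitochondrial induced protein, had the only negative value of these genes, −0.75 (standard error 0.85), with 26.7 to 107 CPM in KPF (median 73.5) and 105, 19.2 and 2.41 CPM in 4449, 4891 and 4938, so that 4891 and 4938 were below every KPF library. Parp9 and Parp14, ADP-ribosyltransferases, had 0.85 and 0.15, Dtx3l, the ubiquitin ligase partner of Parp9, had 0.19, and the leucine zipper protein Ifi35 had 0.35. Parp9 and Dtx3l overlap at their 5′ ends, in opposite directions.

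The 6 interferon-inducible GTPases, which attack the vacuoles of intracellular pathogens and respond strongly to interferon gamma, differed widely between libraries. All 6 had a positive value (median log2 fold change 1.90) and all 6 were highest in 4449, but none had an unadjusted p under 0.05 by edgeR. Their summed level was 6.40 to 90.8 CPM in KPF libraries, and 400, 49.3 and 7.33 CPM in 4449, 4891 and 4938. Iigp1, which coats parasite vacuoles, had the largest value, 3.07 (standard error 1.39, unadjusted p = 0.0519, adjusted p = 0.316), with 0.715 to 11.6 CPM in KPF (median 4.93) and 134, 1.53 and 0.219 CPM in 4449, 4891 and 4938. A single library thus set the mean of the group, and the value was −2.60 without it. Irgm1, a regulator of these GTPases, had the smallest value, 1.22 (standard error 1.79), with 0 to 4.31 CPM in KPF (median 0.42) and 5.69, 0 and 0.984 CPM in 4449, 4891 and 4938. Irgm1 fell below the count filter without 4449, and also without 4938 or 4504s. The guanylate-binding proteins Gbp2, Gbp3 and Gbp7 had 2.30, 2.40 and 1.26, and Igtp, whose exons overlap Irgm2, had 1.50. Gbp3 was the only GTPase for which 4891 also lay above every KPF library, with 25.6 CPM against at most 10.2 CPM.

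Of the feedback inhibitors, Usp18, the protease that removes Isg15 and blocks Ifnar2, had 1.22 (standard error 0.85, unadjusted p = 0.175, adjusted p = 0.529), with 0.568 to 9.05 CPM in KPF (median 6.22) and 27.3, 8.61 and 3.94 CPM in 4449, 4891 and 4938. Socs1, an inhibitor of Jak kinases, had 0.36 (standard error 0.73), with 3.27 to 17.4 CPM in KPF (median 6.44) and 6.28, 12.9 and 9.95 CPM in 4449, 4891 and 4938. Usp18 was highest in 4449 and Socs1 was not, and the groups overlapped for both.

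The direction of the members as a list depended on library 4449. Without it, 46 members had enough counts to be tested, of which 23 were higher and 23 lower, the median log2 fold change was 0.05 (−0.14 over all genes), and 14 members changed sign. No member was then higher by the rule of the study (4.26% of all genes) and 3, Ifngr1, Isg20 and Ifi27, were lower (10.5%). Ifngr2 was above and Ifi27, Ifngr1, Isg20, Oasl1 and Trim25 were below every KPF library in both remaining KPYYF libraries (8.74% and 10.4% of all genes). Without 4938 instead, the median was 1.35, 16 members were higher and 2, Ifnar1 and Ifngr1, lower by the rule of the study (3.87% and 9% of all genes), and 14 members, among them Irf7, Isg15, Ifit1, Mx1, Rsad2, Ifitm3, Ifi44, Xaf1, Rtp4 and Gbp3, were above every KPF library in both 4449 and 4891 (6.85%), with Ifnar1 below (8.77%). No member had an adjusted p under 0.05 in any of the 9 fits that left out a library, the smallest being 0.0557.

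**Figure D3:**
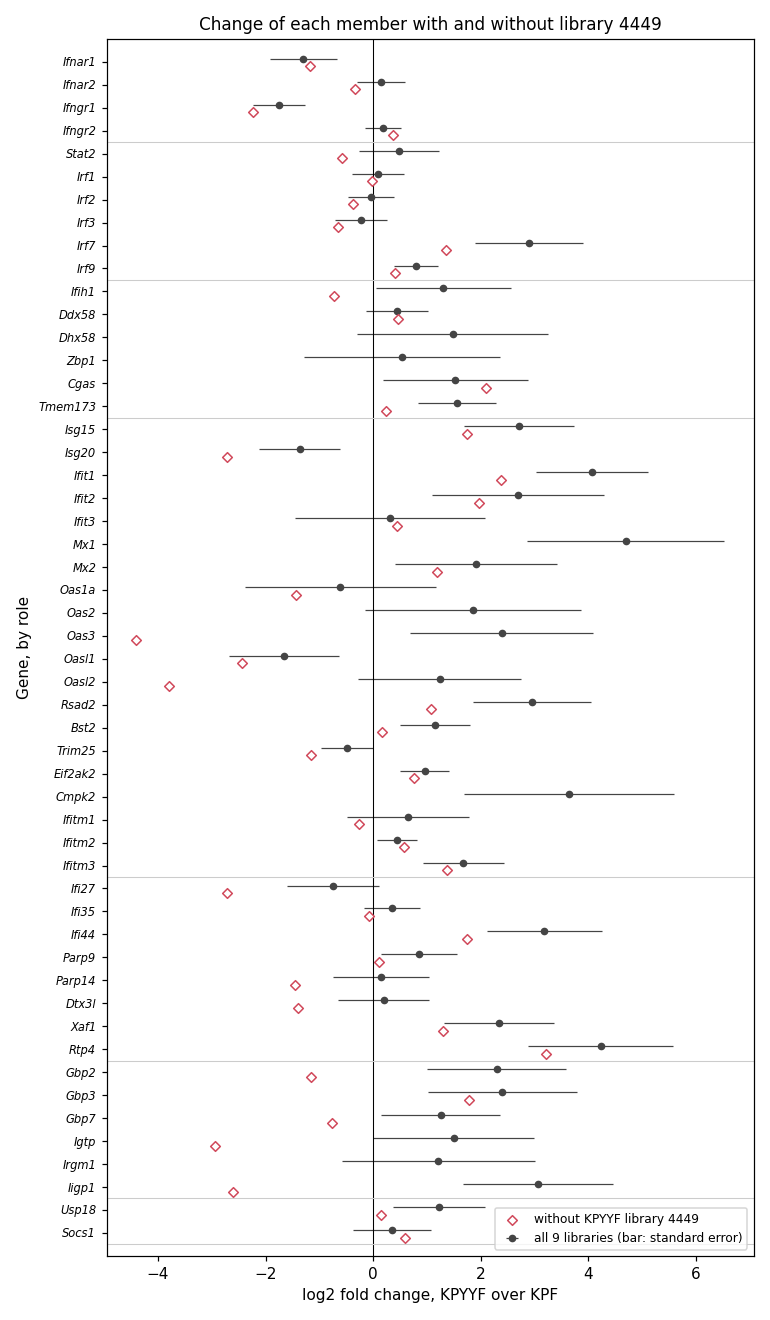
Log2 fold change of each member, KPYYF over KPF, by role, with all 9 libraries (filled circle, bar of 1 standard error) and without KPYYF library 4449 (open diamond; 46 of 52 members had enough counts). The medians are 1.19 and 0.05, and 14 members cross 0: Ifnar2, Stat2, Irf1, Ifih1, Oas3, Oasl2, Ifitm1, Ifi35, Parp14, Dtx3l, Gbp2, Gbp7, Igtp and Iigp1.

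Immune cells express many of these genes, so the members were set beside the immune markers of each library. KPF library 4601 had the highest level of the 6 KPF libraries for 30 of the 52 members (20.9% of all genes), and the highest of all 9 for 6, Ifngr1, Irf2, Trim25, Ifitm1, Ifi35 and Parp14 (14.2% of all genes). The summed level of the members was 2171 CPM in 4601 and 1455 CPM in 4504s, next in immune markers with 4124 CPM, against 875 to 1049 CPM in the other 4 KPF libraries. In the KPYYF libraries 4449, 4891 and 4938 it was 3402, 1594 and 941 CPM.

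In sum, the immune markers of 4449 did not stand above those of the KPF libraries. The 40 markers summed to 1112 CPM in 4449, 781 in 4891 and 790 in 4938. The KPF libraries had 709 to 15016 CPM, with a median of 1152. None of the 40 was higher in 4449 than in every KPF library, but 4601 alone was highest of all for 34 of them. Beside the KPF libraries other than 4601, 4449 was highest in Adgre1 (10.5 against at most 5.61 CPM), Csf3r (7.23 against 5.20) and Cd3d (4.27 against 2.76). Flt3 had 1 read in 4449, and no other marker exceeded those libraries. In 4449, 15 markers had no count, among them Cd3e, Cd8a, Cd79a, Ms4a1 and Xcr1, which mark T cells, B cells and dendritic cells. Siglech, of plasmacytoid dendritic cells, had no count in any library. Macrophage markers were present, with Lyz2 at 549 CPM in 4449 against 266 to 5974 CPM in KPF. Without 4601, 9 members were higher and 1 lower by the rule of the study (4.47% and 8.45% of all genes) with a median log2 fold change of 1.24, and Isg15, Ifitm3 and Ifi44 were above every remaining KPF library in all 3 KPYYF libraries (5.19%), with no member below (6.04%). With 4504s left out as well, 14 members were higher by that rule (614 of 13416 genes). Ifitm3 then came just under the adjusted p threshold of 0.05 by edgeR, and the median was 1.42.

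Acinar markers did move with the members in 4449. They summed to 5195 CPM there, against 82.7 and 69.9 CPM in 4891 and 4938, and their part in the member levels was not tested. KPF library 4504s, with a higher acinar sum of 19001 CPM, had 1455 CPM of members. With both left out, the median log2 fold change was 0.00 and no member was higher by the rule of the study (547 of 13500 genes). The fit without 4449 alone had already given 0.05 and 0 members, so leaving out 4504s as well tells nothing about the acinar markers.

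**Figure D4:**
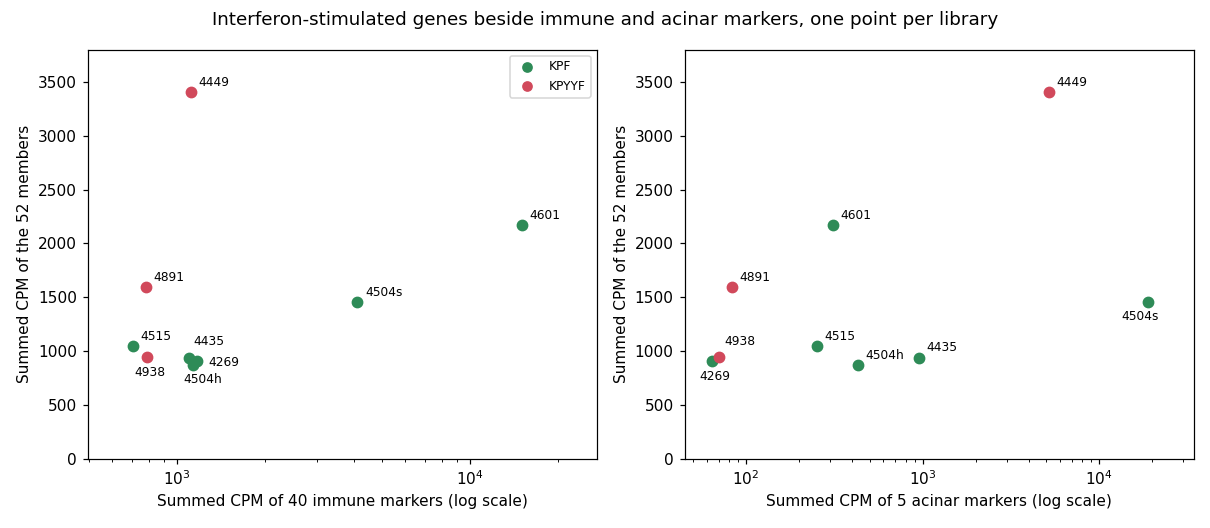
Summed CPM of the 52 members (vertical, from 0) against the summed CPM of 40 immune markers (left, log axis) and of 5 acinar markers (right, log axis), one labelled point per library. Library 4449 has the highest member sum, 3402 CPM, at an immune sum of 1112 CPM, while 4601, at 15016 CPM of immune markers, has 2171 CPM of members.

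A list of 73 other genes of the interferon pathway was read from the same fit, and 52 of them were tested. Of these, 23 had a positive and 29 a negative log2 fold change (46.7% and 53.3% of all genes), with a median of −0.29. None had an adjusted p under 0.05 in edgeR's quasi-likelihood test, 3 (Aim2, Gbp6 and Irgm2) were higher and 2 (Ifnlr1 and Il10rb) lower at an unadjusted p under 0.05 with a change over 2-fold (4.2% and 9.2% of all genes), DESeq2 called 1, Il10rb, lower and none higher at an adjusted p under 0.05, and limma-voom called none. The highest level was in 4449 for 15 and in 4601 for 19 of the 52, against 16.1% and 14.2% of all genes. Among 10 interferon ligands, 9 had no count in any library, and Ifnb1 had 6 reads in 4449 and none elsewhere. A ligand at 0 counts was not detectable at this depth.

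Gbp6, another guanylate-binding protein, had the largest positive value of these genes. Its reads were 104 in 4449, 3 in 4601 and 1 in 4891, so it passed the count filter through 4449. It had 12.3 CPM in 4449, 0.109 in 4891 and 0 in 4938 and at most 0.436 CPM in KPF libraries, so its fitted log2 fold change of 5.72 depends on the prior count and is no bound. Ifnlr1, the receptor chain for interferon lambda in epithelia, had the largest negative value, −3.25 (adjusted p = 0.286), with 1.93 to 15.3 CPM in KPF and 0, 0.109 and 1.97 CPM in 4449, 4891 and 4938, and overlapped only through 4504s and 4938. Its partner Il10rb had −1.43 (unadjusted p = 0.00425, adjusted p = 0.116), with 37.3 to 67.8 CPM in KPF and 24.8, 9.05 and 21.6 CPM in KPYYF libraries, which did not overlap.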

How the data were processed

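RNA of sorted cells was made into QuantSeq 3′ Fwd libraries per the labels. The authors deposited raw counts per Ensembl gene for each of the 9 libraries. The submitters' processing notes name STAR, HTSeq and mm10; versions, annotation and strand setting are not given in the sources used here, and the methods describe hybridization to BeadChips, with DESeq2 and a filter on summed reads. Genes took 37.3 to 42.0% of reads in each file, reads on no feature 8.63 to 16.0% and reads without a unique alignment 43.9 to 53.4%, and only the first class entered library sizes.

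Identifiers were matched to GENCODE M21 (GRCm38). Genes whose counts summed to 100 or more were compared with edgeR 4.0.16's robust quasi-likelihood test after TMM scaling, in R 4.3.3, without covariates and p values were adjusted by the Benjamini-Hochberg method across all of them. A prior count of 2 entered the log2 CPM of each library. Single members were also compared by exact permutation over all 84 divisions of the 9 libraries. The depth per library limits a count of 0 to at most 0.436 CPM. The members and lists were chosen with earlier results of these data known. Members were named with values per library if they had an adjusted p under 0.05, an unadjusted p under 0.05 with a more than 2-fold change, no overlap between groups, or the largest or smallest value of their role; Cgas, Gbp3 and Il10rb were named after their values were seen. Alternatives were DESeq2 1.42.0, limma 3.58.1 (voom with sample weights), RLE and upper quartile scaling, other filters, libraries 4504h and 4504s summed, libraries with at least 100 CPM of Xist, and each library left out. Another engineered allele of the mice and another gene of the pathway list are not reported here. Scripts were tested on simulated data. Figures used matplotlib.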

Additional observations from a re-analysis of the deposited data

Results flagged for a closer look

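Within the KPF group, 55 sets of 6 values were examined for a library that stood apart by Dixon's ratio. They were the 52 members and the summed immune, acinar and member levels, and 15 had one. For normally distributed values chance gives about 1 in 20 sets, but CPM was examined here on its linear scale. No share over all genes was computed for this rule. In 10 of the 15 it was library 4601, which was the highest of the KPF libraries for 20.9% of all genes. There, Irf2 had 79.0 CPM, Zbp1 5.81, Mx1 1.16, Oas2 3.78, Trim25 203, Ifitm1 86.0, Ifi35 69.3, Parp14 50.8 and Gbp7 62.6 CPM, each above the other KPF libraries, and the immune markers summed to 15016 CPM. Library 4269 stood apart in Isg20, with 84.7 CPM, and Ifit2, with 7.09 CPM. Library 4515 stood apart in Socs1, with 17.4 CPM. Library 4504s stood apart in Irgm1, with 4.31 CPM, and in the summed acinar markers, with 19001 CPM. The KPYYF group, with 3 libraries, is too small for this rule.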

How the results depend on the processing

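No paired analysis was possible because the labels number the libraries by mouse, no mouse number occurs in both groups, and numbers given within a group only name a library. The members with an adjusted p under 0.05 were 0 higher and 0 lower in edgeR's quasi-likelihood test and stayed so under RLE and upper quartile scaling, filterByExpr, limma-voom, the summed libraries, the libraries high in Xist and each library left out. With DESeq2 there were 5 higher and 1 lower (269 and 928 of 14105 genes). Without a filter there were 0 higher and 1 lower, Ifngr1 (88 and 219 of 22925 genes). By the rule of the study, 9 members were higher and 1 lower (592 and 1298 of 14105 genes). DESeq2 gave 10 and 2 (636 and 1698 genes) and limma-voom 3 and 3 (708 and 1008 genes). Leaving out each library gave 0 to 16 and 1 to 3 (538 to 630 and 1087 to 1454 of 13793 to 13890 genes). The median log2 fold change of 1.19 was 0.98 to 1.43 without each library other than 4449, 0.050 without 4449, and 0.013 in limma-voom. In the libraries high in Xist it was 1.23. Limma-voom gave weights of 0.502 to 4449, 0.503 to KPF library 4269 and 2.44 to 4504s. The cause of its lower median was not tested. Members without overlap, higher and lower together, numbered 0 (3.93% of all genes higher and 5.16% lower). With 4504h and 4504s summed there was 1, in the libraries high in Xist 4, and without each library 0 to 15. Fewer libraries leave more genes without overlap, as in the fit without 4449 (8.74% of all genes higher and 10.4% lower). Among the changed sets of libraries, shares over all genes were computed only without 4449, 4938 or 4601. Another 2 choices were added after seeing the data. Without 4601 and 4504s, 1 member was higher at an adjusted p under 0.05 (11 of 13416 genes). By the rule of the study 14 were then higher (614 of 13416 genes), and 8 did not overlap. Without 4449 and 4504s, the median was 0.0019, and 0 members were higher and 3 lower by that rule (547 and 1315 of 13500 genes). In that fit 8 members did not overlap. Of the other pathway genes, DESeq2 called 1 (Il10rb) lower at an adjusted p under 0.05. The log2 fold changes that turned sign had no adjusted p under 0.05 in any of these fits. In limma-voom they were Ifnar2 −0.12, Irf1 −0.058, Ifih1 −0.20, Ddx58 −0.0050, Zbp1 −0.81, Ifit3 −0.090, Oas2 −0.14, Oas3 −0.39, Oasl2 −3.09, Cmpk2 −0.59, Parp14 −0.81, Dtx3l −2.05, Gbp2 −0.22, Gbp3 −0.30, Igtp −1.19, Irgm1 −0.53, Iigp1 −1.51. Without 4449 and 4504s they were Ifnar2 −0.26, Stat2 −0.63, Ifih1 −0.93, Oas3 −4.67, Oasl2 −3.44, Ifitm1 −0.27, Ifi35 −0.053, Parp14 −1.48, Dtx3l −1.41, Gbp2 −0.55, Gbp7 −0.72, Igtp −3.02, Iigp1 −2.22, Usp18 −0.093. In the libraries high in Xist they were Irf2 0.17, Ifit3 −0.047, and without 4601 and 4504s Irf2 0.34. Over the fits without 1 library, the ranges were Ifnar2 −0.34 to 0.45, Stat2 −0.58 to 0.92, Irf1 −0.13 to 0.39, Irf2 −0.37 to 0.30, Irf3 −0.66 to 0.21, Ifih1 −0.72 to 1.89, Ddx58 −0.24 to 0.90, Ifit3 −1.01 to 1.45, Oas3 −4.40 to 3.03, Oasl2 −3.80 to 1.83, Ifitm1 −0.27 to 1.52, Ifi35 −0.074 to 0.81, Parp14 −1.45 to 1.00, Dtx3l −1.39 to 0.77, Gbp2 −1.16 to 2.90, Gbp7 −0.77 to 2.16, Igtp −2.94 to 2.08, Iigp1 −2.60 to 3.66. Within these ranges Irf1 was −0.077 without 4269, −0.057 without 4504h and −0.016 without 4449, Irf2 was 0.15 without 4891 and 0.038 without 4938, and Parp14 was −0.0084 without 4269. Depth limits a gene at 0 counts to a bound, and 6 members (Dhx58, Zbp1, Mx1, Oas2, Cmpk2 and Irgm1) fell below the filter without 4449. Zbp1 and Oas2 also fell below it without 4601, and Irgm1 without 4938 or 4504s.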
